A study of Mus musculus with 2 samples.

Results

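Cell cycle and DNA replication genes were examined in Treg cells, the Foxp3-dependent regulatory subset of CD4 T cells, taken from the colon lamina propria of female mice. The set was given as 42 gene symbols, each matching 1 row of the 55246 loci in the deposited count table. It holds 15 replication genes, 13 mitotic genes, 9 genes of the G1 engine (cyclins D and E, their kinases and E2f1) and 5 genes of cyclin-dependent kinase (CDK) inhibitors. The labels give 2 genotypes with 1 library each, wild type (WT) and Exon2KO, whose Foxp3 allele lacks exon 2 and which the series title calls Foxp3∆2. The labels name no treatment, no age and no other allele, and do not say whether a library came from 1 mouse or from several. The sorting scheme is not given in the sources used here. With 1 library a genotype the spread among samples is not known for any value, and every interval below covers counting error only.

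A T cell that leaves rest first raises D cyclins, which pair with CDK4 or CDK6 and loosen the hold of the retinoblastoma (RB) proteins on E2F transcription factors. E2F then drives the genes that load and fire the MCM helicase and make nucleotides. Later a further programme, held down by the DREAM complex at rest and raised by other MuvB complexes, drives the cyclins and kinases of mitosis. INK4 inhibitors block CDK4 and CDK6, and CIP/KIP inhibitors act on a wider range of cyclin-CDK complexes. Treg cells in the gut turn over through both arrival and local division, so these genes are often read as a measure of cycling.

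The promoters of both arms carry known sequence motifs, and 4 are shown because they place these motifs in members on both sides of the comparison. Capitals mark the E2F letters TTTGGCGC or TTTCCCGC, the CHR letters TTTGAA (the cell cycle genes homology region) and the CCAAT box, on either strand. No marked matches overlap in these windows. Each run is the 250 bases before the RefSeq start (build GRCm38.p6), written 5′ to 3′ along the gene's strand. No annotated exon of GENCODE M21 lies in these windows. Mcm5 lies at chr8:75109259-75109508 on the plus strand, Mcm6 at chr1:128359706-128359955, Ccnb2 at chr9:70421555-70421804 and Top2a at chr11:99024190-99024439, the last 3 on the minus strand.
Mcm5: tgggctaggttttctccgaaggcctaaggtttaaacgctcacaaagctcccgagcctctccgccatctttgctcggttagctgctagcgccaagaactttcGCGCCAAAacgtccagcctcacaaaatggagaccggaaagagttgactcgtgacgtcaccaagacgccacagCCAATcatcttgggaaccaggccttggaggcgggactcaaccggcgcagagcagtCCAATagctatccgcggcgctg
Mcm6: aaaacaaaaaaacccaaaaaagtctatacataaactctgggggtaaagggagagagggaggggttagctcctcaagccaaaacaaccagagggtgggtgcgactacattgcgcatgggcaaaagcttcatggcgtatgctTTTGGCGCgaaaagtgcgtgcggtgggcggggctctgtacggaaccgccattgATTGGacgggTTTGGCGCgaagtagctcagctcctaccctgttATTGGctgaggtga
Ccnb2: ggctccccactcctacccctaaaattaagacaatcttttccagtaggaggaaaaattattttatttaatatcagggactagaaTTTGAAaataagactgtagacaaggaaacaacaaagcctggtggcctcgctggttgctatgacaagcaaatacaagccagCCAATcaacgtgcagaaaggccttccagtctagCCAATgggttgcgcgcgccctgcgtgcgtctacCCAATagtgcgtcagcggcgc
Top2a: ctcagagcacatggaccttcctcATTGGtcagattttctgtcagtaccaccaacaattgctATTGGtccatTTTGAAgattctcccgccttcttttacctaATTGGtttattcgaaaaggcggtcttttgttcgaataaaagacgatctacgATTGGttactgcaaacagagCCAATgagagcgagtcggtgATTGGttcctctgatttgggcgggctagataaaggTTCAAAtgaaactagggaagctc

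The RefSeq table held promoters for 35 of the 42 members. E2F letters stood in 4 of 13 replication genes (Cdc6, Mcm5, Mcm6 and Mcm7) and in 0 of 11 mitotic genes, against 1.3% of all 32851 promoter windows of the same length. CHR letters stood in 5 of 11 mitotic genes (Ccnb2, Cdc20, Cdk1, Mki67 and Top2a) and in 2 of 13 replication genes, against 16% of all windows. A CCAAT box stood in 10 of 11 mitotic and 10 of 13 replication genes, against 33.8% of all windows. A member was counted once if any of its RefSeq starts had a match, while the background counts each window. The shares of members and of all windows thus differ in unit, which can raise those of the members. A match describes the letters and is not evidence of a bound factor.

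Depth was 16281133 gene-assigned reads for WT and 15412425 for Exon2KO. A count of 0 allows a level of up to 0.184 and 0.195 counts per 1000000 reads (3 reads of the total). Reads were scaled to library size with edgeR's TMM factors, and ratios are Exon2KO over WT on the log2 scale with a prior count of 2. A gene was tested when it had at least 10 reads over both libraries, and called when its ratio reached 1.5-fold. Foxp3 had 6991 WT reads and 20946 Exon2KO reads. A count over the whole gene does not test for the loss of 1 exon. Of the 6 Treg label genes 2 were called lower and 2 higher (33.3% in each direction, against 15.3% and 16.8% of all tested genes). Foxp3 and Ctla4, an inhibitory receptor with 79358 and 132229 reads, were higher. Ikzf2, which encodes the Treg factor Helios, had 8476 and 440 reads, 19.5-fold lower in Exon2KO, and Tnfrsf18, which encodes the receptor GITR, had 34363 and 11626, 3.01-fold lower. The Treg markers thus differed between the libraries, and their part in the cell cycle values was not tested. Of the 10 T cell identity genes 6 had a counting interval below 0 (60%, against 24.6% of all tested genes) and 2 above 0 (20%, against 22.8%). Cd3e, a chain of the T cell receptor complex, had 5154 and 5262 reads. Cd2, an adhesion receptor and the most abundant of the 10, had 32787 and 19603 reads, 1.70-fold lower in Exon2KO. Together the 10 genes held 0.649% of WT reads (95% Wilson interval 0.645 to 0.653) and 0.558% of Exon2KO reads (0.555 to 0.562).

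Most cell cycle genes lay within 1.5-fold between the libraries. Of the 41 members tested, 35 stayed within 1.5-fold, 3 were called lower in Exon2KO (Birc5, Ccnb2 and Cdkn2d) and 3 were called higher (Ccnd1, Cdk6 and Cdkn2c). The lower calls depend on the scaling. With unscaled totals Birc5 (-0.57) and Ccnb2 (-0.56) were no longer called, and with scaling to T cell identity genes none of the 3 was, at -0.35 (Birc5), -0.35 (Ccnb2) and -0.44 (Cdkn2d). Over all 17363 tested genes 15.3% were called lower and 16.8% higher, so the members' shares of 7.32% in each direction lay under the background. Many of the genes over all are counted from few reads, and among the 10906 genes with at least 100 reads the background was 10.2% lower and 8.48% higher, against 3 and 2 of 36 members. Cdkn2a, which encodes the inhibitors p16Ink4a and p19Arf, was not tested, with 3 reads in each library.

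Below that threshold the members leaned one way. The log2 ratio was below 0 for 31 of 41 members, against 49.7% of all tested genes, and the member median was -0.22 against 0.0033 for all tested genes. The 95% counting interval lay below 0 for 17 members (24.6% of all tested genes) and above 0 for 6 (22.8%). All 17 had at least 100 reads, a depth at which 30.8% of genes lay below 0. The count of 17 was 10 with unscaled totals, 3 when scaled to T cell identity genes and 7 when Cd2 was left out of that scaling. With reads scaled instead to the summed reads of the T cell identity genes, which were fewer in Exon2KO, the median of all tested genes moved up by 0.323 and the medians of all 4 member groups came to lie above 0. Much of that shift came with Cd2. Without it the median of all genes moved by 0.160, and the medians were 0.0068 for replication, -0.15 for mitotic, 0.0020 for G1 and -0.0007 for inhibitor members. A change of scaling moves every gene by the same amount, so it leaves the distance of a gene from the median of all genes as it was and is no check on that distance. In bulk RNA a smaller share of cycling cells, less RNA per cycling cell and a different mix of cell types cannot be told apart. None of these was tested.

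**Figure D1:**
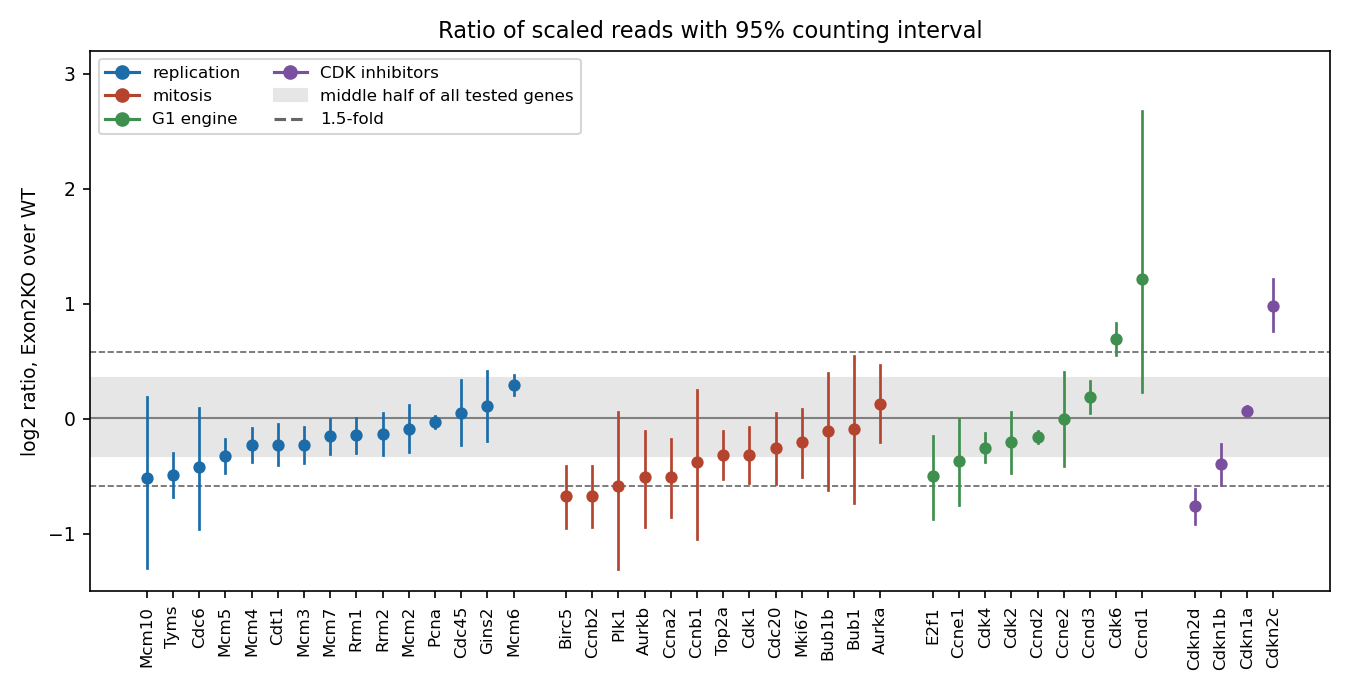
Log2 ratio of scaled reads, Exon2KO over WT (vertical axis), for the 41 tested members grouped by role; points are ratios, vertical lines 95% counting intervals, the grey band the interquartile range of all tested genes (-0.33 to 0.35) and dashed lines a 1.5-fold ratio. Birc5, Ccnb2 and Cdkn2d lie under the lower line and Cdk6, Ccnd1 and Cdkn2c over the upper line; scaling to T cell identity genes would lift every point by 0.323, or by 0.160 without Cd2.

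The authors' own comparison rests on a test that is not given in the sources used here. It too had 1 library a genotype, so its p-values, here and below, hold no measured spread among samples. None of the 42 members had an adjusted p-value below 0.05 in the authors' deposited table, against 1029 of its 22447 genes (4.58%). The authors' deposited table gave 1 member, Cdkn2c, an unadjusted p-value below 0.05 (0.0214), and its adjusted p-value of 0.227 was the lowest in the set.

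Levels per gene length differed far more between genes than between libraries. On the FPKM scale (reads per gene length, adjusted for depth, as the authors deposited them) the highest member was Cdkn1a, at 177 in WT and 188 in Exon2KO. Pcna followed at 158 and 157, and Ccnd2 at 43.3 and 39.2. Median FPKM was 10.4 and 9.43 for replication genes and 2.78 and 1.97 for mitotic genes. Mki67, the usual marker of cycling cells, stood at 1.29 and 1.13 and Bub1 at 0.655 and 0.621.

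**Figure D2:**
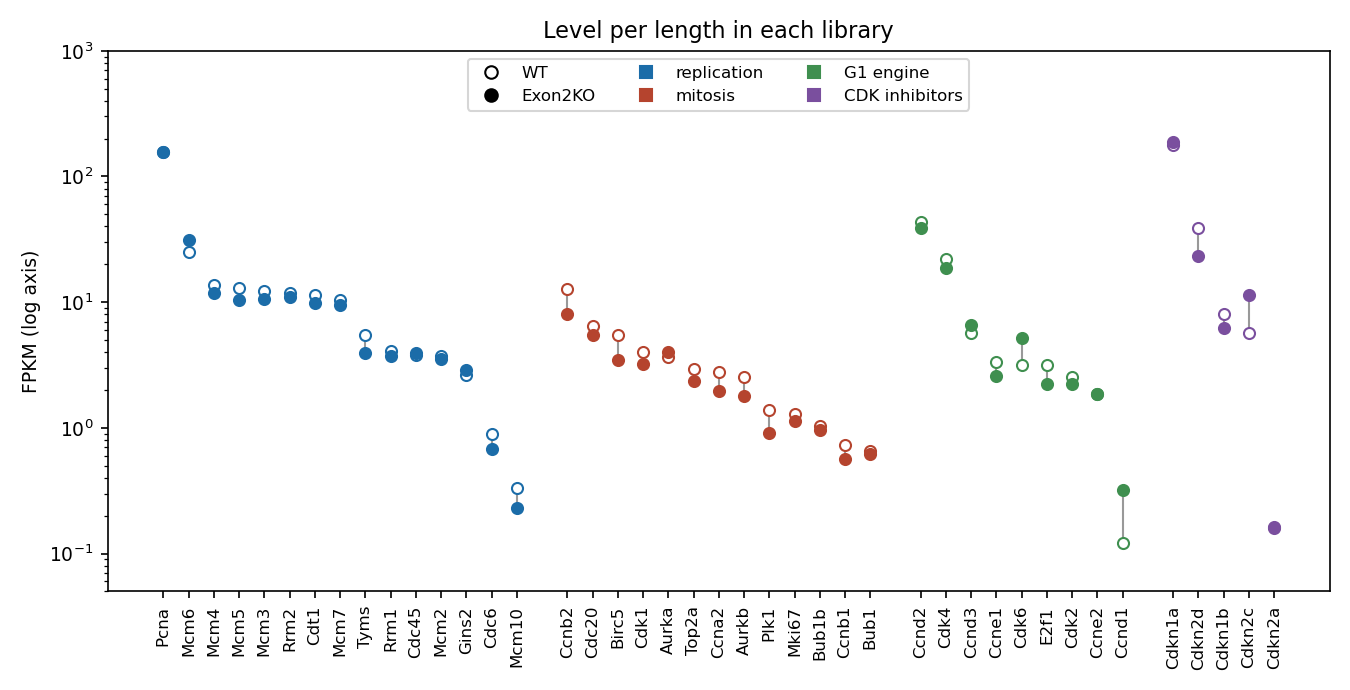
FPKM on a log axis (vertical) of all 42 members by role, with open points for the WT library and filled points for Exon2KO, 1 library each. Cdkn1a and Pcna stand highest in both libraries, mitotic genes other than Ccnb2 lie below 10, and the widest gaps between open and filled points are at Ccnd1, Cdkn2c and Cdkn2d.

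Among replication genes none of 15 reached 1.5-fold, and 12 had a ratio below 0. Their median was -0.15, and it was 0.17 when scaled to T cell identity genes. Pcna encodes the clamp that holds DNA polymerase on its template. It had 5967 and 5978 reads, a ratio of -0.02 (-0.08 to 0.03). That depends on the scaling, and the ratio was 0.0818 with unscaled totals and 0.299 when scaled to T cell identity genes.

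The MCM2-7 complex is the ring-shaped helicase that opens DNA at the fork, with 1 copy of each of its 6 subunits. Its genes did not keep step. Mcm5 had 809 and 659 reads, a ratio of -0.32 (-0.47 to -0.17), and Mcm3 had 732 and 638 reads (-0.22, -0.38 to -0.07). Mcm4 had 775 and 675 (-0.23, -0.38 to -0.08). Mcm7 had 725 and 664 reads and Mcm2 had 407 and 391, at -0.15 and -0.08. Mcm6 went the other way, with 1857 and 2316 reads, a ratio of 0.29 (0.20 to 0.38). Mcm6 (ENSMUSG00000026355, chromosome 1, 128331590 to 128359664, GRCm38) thereby held 32.3% of the MCM2-7 reads per length in WT and 40.5% in Exon2KO.

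The log2 ratio of Mcm6 to each of the other subunits was higher in Exon2KO by 0.38 (0.16 to 0.60, against Mcm2) to 0.61 (0.44 to 0.79, against Mcm5). These ratios between genes do not depend on how the libraries are scaled. Both Mcm5 and Mcm6 carry E2F letters in the windows printed above, 1 match in Mcm5 and 2 in Mcm6. With TMM scaling their ratios lay on opposite sides of 0. When scaled to T cell identity genes both lay above 0, Mcm5 at 0.0011 and Mcm6 at 0.61. In the deposited lengths and counts Mcm6 was also the most abundant subunit and Mcm2 the least, at 25.2 and 3.71 FPKM in WT.

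Among genes that load and fire the helicase, Cdt1 had an interval below 0. Cdt1, the loader of MCM2-7, had 567 and 494 reads (-0.22, -0.40 to -0.05). Geminin (Gmnn), which binds and blocks Cdt1, was outside the set. The Cdt1 to Gmnn ratio per length was 0.631 in WT and 0.646 in Exon2KO. Cdc6, the other loading factor, had 74 and 56 reads and Mcm10, a fork factor, 40 and 28. Their ratios of -0.42 (-0.96 to 0.09) and -0.51 (-1.29 to 0.19) were not distinguishable from 0 at this depth. Cdc45 and Gins2, partners of the helicase in its active form, had 209 and 221 and 170 and 187 reads, at 0.05 and 0.11. Gins2 shares 67.3% of its exonic bases with Gse1 on the other strand, so its reads are uncertain.

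Among genes of nucleotide supply, Tyms had an interval below 0. Tyms, thymidylate synthase, had 527 and 383 reads, a ratio of -0.49 (-0.68 to -0.29). Rrm1 and Rrm2, the subunits of ribonucleotide reductase, had 715 and 659 and 519 and 482 reads, at -0.14 (-0.30 to 0.01) and -0.13 (-0.32 to 0.05). Their ratio to each other per length was 0.347 in WT and 0.344 in Exon2KO.

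Mitotic genes lay lowest among the member groups. Of 13, 12 had a ratio below 0, and the median was -0.31 (0.0101 when scaled to T cell identity genes). The 2 called lower (15.4%) match the 15.3% of all tested genes, and 0 were called higher. Their reads together made up 0.0146% of WT reads (Wilson interval 0.0140 to 0.0152) and 0.0122% of Exon2KO reads (0.0116 to 0.0127). Birc5 (ENSMUSG00000017716, chromosome 11, 117849251 to 117855743) encodes survivin, a subunit of the chromosomal passenger complex. Its count was 294 in WT and 187 in Exon2KO (18.7 and 11.7 CPM, counts per 1000000 scaled reads), a ratio of -0.67 (-0.95 to -0.41) or 1.59-fold lower.

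Ccnb2 (ENSMUSG00000032218, chromosome 9, 70407692 to 70421547), a B cyclin of the mitotic CDK1 kinase, had 307 and 196 reads. Its ratio was -0.67 (-0.94 to -0.41), again 1.59-fold lower. Plk1, a kinase of mitotic entry, stood just outside the threshold at -0.58, 1.498-fold lower, with 48 and 32 reads and an interval that reached 0.06. Ccnb1, the other B cyclin, had 49 and 38 reads (-0.38, -1.04 to 0.25). Ccnb2 accounted for 94.5% of B cyclin reads per length in WT and 93.4% in Exon2KO.

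Aurkb, the kinase of the chromosomal passenger complex, had 118 and 84 reads, a ratio of -0.51 (-0.94 to -0.10). Aurka, its spindle pole relative, had 146 and 163 reads (0.13, -0.20 to 0.46) and was the only mitotic member above 0 with TMM scaling. With unscaled totals Bub1 (0.016) lay above 0 too, and the mitotic median itself was 0.0101 when scaled to T cell identity genes. The Aurka to Aurkb ratio per length was 1.44 in WT and 2.26 in Exon2KO, a log2 change of 0.65 (0.13 to 1.17). The separation of the Aurora kinases was thus larger than counting error.

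Ccna2, the cyclin of S phase and G2, had 179 and 128 reads (-0.50, -0.85 to -0.18), and 12.5% of its exonic bases are shared with Exosc9 on the other strand. Cdk1 had 311 and 255 reads (-0.31, -0.56 to -0.07), and Top2a, the topoisomerase that untangles chromosomes, had 415 and 340 (-0.31, -0.53 to -0.10). Both Ccnb2 and Top2a have CHR letters and CCAAT boxes in the windows above. Mki67 had 205 and 181 reads and Cdc20, the activator of the anaphase-promoting complex, 191 and 163, at -0.20 (-0.50 to 0.09) and -0.25 (-0.57 to 0.05). The spindle checkpoint genes Bub1 (45 and 43 reads) and Bub1b (70 and 66) gave no difference detectable at this depth.

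The G1 engine split by gene. Of its 9 genes, 2 were called higher (22.2%, against 16.8% of all tested genes) and 0 lower (against 15.3%), 5 had a ratio below 0, and the median was -0.16 (0.165 when scaled to T cell identity genes). Cdk6 (ENSMUSG00000040274, chromosome 5, 3341485 to 3531008) was counted 703 times in WT and 1160 times in Exon2KO, a ratio of 0.69 (0.56 to 0.83) or 1.62-fold higher. Cdk4, the other D cyclin kinase, had 1121 and 960 reads (-0.25, -0.38 to -0.12).

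Cdk6 therefore made up 12.7% of the reads per length of this kinase pair in WT and 21.9% in Exon2KO. The Cdk4 to Cdk6 ratio was 6.87 and 3.56, a log2 change of -0.95 (-1.13 to -0.76) that does not depend on library scaling. Cdk4 shares 19.7% of its exonic bases with Tspan31 on the other strand, which had 882 and 800 reads.

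Ccnd2 was the main D cyclin, with 6427 and 5868 reads and 88.2% of D cyclin reads per length in WT against 85.1% in Exon2KO. Its ratio was -0.16 (-0.21 to -0.11). Ccnd3, the D cyclin of many lymphoid cells, had 782 and 911 reads, at 0.19 (0.05 to 0.33). Ccnd1, which is common in epithelium and little used by lymphocytes, had 9 and 24 reads, a ratio of 1.21 (0.23 to 2.68), and shares 23.4% of its exonic bases with a gene on the other strand. It was called higher, as were 9 of 12 tested epithelial genes given below, though not Epcam or Muc2. Their part in this ratio was not tested.

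E2f1, an activating E2F factor, had 156 and 112 reads (-0.50, -0.87 to -0.15). Cyclin E, which acts with Cdk2 at the start of S phase, is encoded by Ccne1 (140 and 110 reads, -0.37, -0.75 to -0.0040) and Ccne2 (102 and 104 reads, 0.00, -0.41 to 0.41). Cdk2 itself had 251 and 222 reads, at -0.20 (-0.47 to 0.06). The E cyclin pair did not separate beyond counting error, with a log2 change of their ratio of -0.38 (-0.91 to 0.16). Ccne2 shares 17.4% of its exonic bases with Ints8 on the other strand, which had 565 and 476 reads, so its reads are uncertain.

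The INK4 inhibitors went in opposite directions. Cdkn2c (ENSMUSG00000028551, chromosome 4, 109660876 to 109667189), which encodes p18Ink4c, was counted 242 times in WT and 489 times in Exon2KO (15.4 and 30.6 CPM). Its ratio was 0.98 (0.76 to 1.22), 1.98-fold higher. Cdkn2d (ENSMUSG00000096472, chromosome 9, 21288410 to 21291407), which encodes p19Ink4d, had 966 and 581 reads, a ratio of -0.76 (-0.91 to -0.61) or 1.69-fold lower. These were the largest differences among members with at least 100 reads.

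Per length the Cdkn2d to Cdkn2c ratio was 6.81 in WT and 2.03 in Exon2KO, a log2 change of -1.75 (-2.02 to -1.48). Of the reads per length of the 3 INK4 members (Cdkn2a, Cdkn2c and Cdkn2d), Cdkn2c held 12.8% in WT and 32.9% in Exon2KO. With Cdkn2b, an INK4 gene outside the set, its share was 12.0% and 30.6%, and Cdkn2d stayed the more abundant in both.

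Among CIP/KIP genes Cdkn1a, which encodes p21, had 9926 and 10624 reads, a ratio of 0.07 (0.03 to 0.11). Cdkn1b, which encodes p27, had 583 and 452 reads, at -0.39 (-0.57 to -0.21). Cdkn1a made up 95.6% of the reads per length of this pair in WT and 96.8% in Exon2KO. Over the 4 tested inhibitors 1 was called higher and 1 lower (25% each, against 16.8% and 15.3% of all tested genes), with a median of -0.16 (0.162 when scaled to T cell identity genes).

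**Figure D3:**
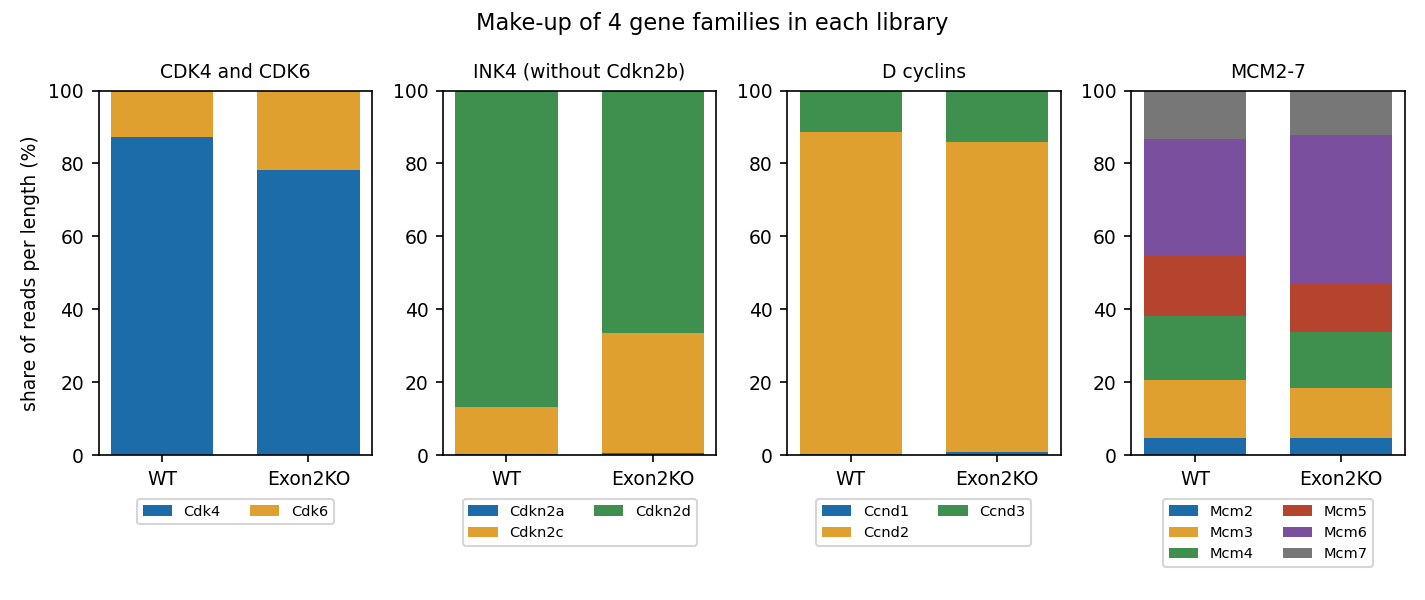
Share of reads per gene length (vertical axis, percent) held by each member of 4 families, of the set's genes only (INK4 without Cdkn2b), in the WT and Exon2KO libraries, 1 library each; bars are stacked to 100. The Cdk6 share goes from 12.7% to 21.9%, the Cdkn2c share from 12.8% to 32.9% and the Mcm6 share from 32.3% to 40.5%, while Ccnd2 holds most of the D cyclin reads in both.

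A further 122 genes of the pathway, listed with earlier results of these data known but not by their own ratios, were read the same way. The 40 other replication genes had a median of -0.06, with 4 called lower (10%, against 15.3% of all tested genes) and 3 higher (7.5%, against 16.8%). Slbp, the histone mRNA binder with the most reads among them, had 5284 and 4459 reads (-0.27), and Rfc2, of the clamp loader, 1365 and 1398 (0.0077). Tk1, thymidine kinase, had 254 and 161 reads, at -0.68 (-0.98 to -0.39). Cdc7, the kinase that fires origins, had 91 and 145 reads, at 0.63 (0.26 to 1.04).

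The 40 other mitotic genes had a median of -0.17, with 12 called lower (30%, against 15.3% of all tested genes) and 2 higher (5%, against 16.8%). Some calls rest on few reads, among those lower Ttk (19 and 4), Anln (11 and 4) and Kif2c (18 and 9). Cdc25c, called higher, had 10 and 17. The intervals of Anln, Kif2c and Cdc25c included 0. Among all genes with at least 100 reads 10.2% were called lower and 8.48% higher. Scaling to T cell identity genes lifts every ratio by 0.323, and the calls in this list were not recounted under it. Kif23, a kinesin of the central spindle, had 1206 and 370 reads, a ratio of -1.73 (-1.90 to -1.56) or 3.31-fold lower. It was the only one of the 122 genes with an adjusted p-value below 0.05 in the authors' deposited table (0.00270). Mad2l1, of the spindle checkpoint, had 704 and 428 reads (-0.74, -0.92 to -0.57). Spc24, of the kinetochore, had 253 and 163 reads and Cks1b, a CDK subunit, 515 and 344, at -0.65 and -0.61. Cenpa and Smc4, the genes with the most reads in the list, had 4528 and 3153 and 3369 and 2434 reads, at -0.55 and -0.50.

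The 17 E2F, RB and DREAM genes had a median of -0.05, with 2 called lower (11.8%) and 1 higher (5.88%), again under the shares of all tested genes. The 2 called lower were E2f2, an activating factor (85 and 45 reads, -0.92, -1.499 to -0.41), and E2f7, an atypical repressor (41 and 18 reads, -1.13, -2.10 to -0.38). The repressor E2f4 had 1125 and 1181 reads and the histone binder Rbbp4 had 3125 and 3065, at 0.0432 and -0.05. Rb1 had 385 and 659 reads, at 0.75 (0.57 to 0.93), but shares 8.11% of its exonic bases with Rcbtb2 on the other strand, which had 952 and 1621 reads. Rb1 also shares 6.78% of its exonic bases with Lpar6 on the other strand, which had 417 and 569 reads. The part of Rcbtb2 and Lpar6 reads in the Rb1 value was not tested.

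The 11 checkpoint genes had a median of -0.10, with 0 called lower (against 15.3%) and 1 higher (9.09%, against 16.8%), the kinase Atr (113 and 179 reads, 0.63). Trp53 had 2530 and 3197 reads, at 0.31 (0.24 to 0.39), and Mdm2, its inhibitor, 1264 and 1125 reads, at -0.19. The 14 quiescence and p53 target genes had a median of -0.10, with 2 called lower (14.3%, against 15.3%). These were Klf2, a factor of resting T cells (2157 and 1036 reads, -1.08), and Sesn1 (1570 and 810 reads, -0.98). Btg1, an antiproliferative gene, had 32585 and 32825 reads and Gadd45b 38783 and 29931, at -0.02 and -0.40. The medians of these 5 further lists all came to lie above 0 when scaled to T cell identity genes, and 4 of them also with unscaled totals or without Cd2 in that scaling.

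**Figure D4:**
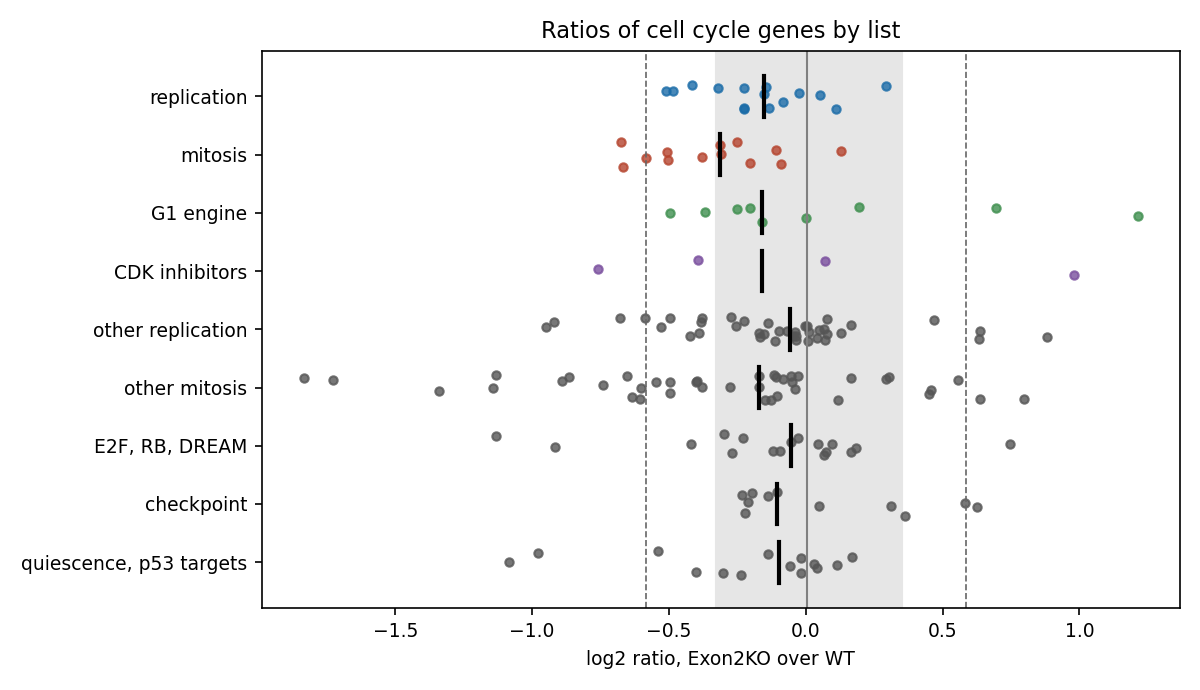
Log2 ratio, Exon2KO over WT (horizontal axis), of each tested gene in the 4 member groups and 5 further lists; black bars are medians, the grey band is the interquartile range of all tested genes and dashed lines mark 1.5-fold. Medians run from -0.31 for mitotic members to -0.05 for E2F, RB and DREAM genes, and scaling to T cell identity genes would lift all of them by 0.323, to above 0.

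Cycling cells of other kinds would add to these counts, and their markers moved unevenly. Of 12 tested colon epithelium genes 9 were called higher in Exon2KO (75%, against 16.8% of all tested genes) and 1 lower (8.33%, against 15.3%), and the list held 0.00776% of WT reads (Wilson interval 0.00735 to 0.00820) and 0.0400% of Exon2KO reads (0.0390 to 0.0410). Car1, a carbonic anhydrase of colonocytes and the most abundant in Exon2KO, had 24 and 1830 reads. The keratins Krt8 and Krt19 had 160 and 1604 and 81 and 1430 reads, and Fabp2, a fatty acid binder of enterocytes, had 0 and 169. Epcam, the most abundant in WT, went the other way, with 782 and 609 reads. So did Muc2, the goblet cell mucin and the gene called lower, with 41 and 21 (-0.93, -1.82 to -0.20). The crypt stem cell marker Lgr5 had 0 and 4 reads and Olfm4 had 0 in both. Of 8 tested B and plasma cell genes 2 were called lower and 1 higher (25% and 12.5%), with 0.830% (0.825 to 0.834) and 0.843% (0.839 to 0.848) of reads. Jchain, a plasma cell gene, had 120089 and 113723 reads. Of 5 tested myeloid genes 1 was called lower (20%, against 15.3%), Csf1r with 14 and 6 reads, and 0 higher (against 16.8%), and the list held 0.00392% (0.00363 to 0.00424) and 0.00522% (0.00487 to 0.00560) of reads, with Lyz2 at 317 and 405. The part of B and plasma cells and of absorptive epithelium in the cell cycle values was not tested.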

How the data were processed

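RNA of colon lamina propria Treg cells was sequenced from a NEBNext Ultra library of each genotype, per the labels' protocols. All ratios start from the gene-level raw counts that the authors deposited. The submitters' processing notes name HISAT2 2.0.5, StringTie 1.3.3b, featureCounts 1.5.0-p3 and DESeq2 1.16.1 and the build mm10, with no role for each. Use of strand is not given in the sources used here. The authors also deposited FPKM, which equalled FPKM recomputed from counts, lengths and totals times 1.03 in WT and 0.969 in Exon2KO. A scaled count signal that the authors deposited was not used. Their log2 fold changes, p-values and adjusted p-values were deposited by the authors for 22447 genes and are quoted by name only.

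TMM factors (0.964 for WT and 1.04 for Exon2KO) came from edgeR 4.0.16 in R 4.3.3. With 1 library a genotype, no test between genotypes was made. Ratios carry 95% Clopper-Pearson intervals of the reads, without the prior count, and were checked on simulated Poisson counts. That simulation held no spread among samples and no duplicate reads, so it cannot show whether the intervals are too narrow for these. No molecular identifiers are mentioned, so reads need not be independent molecules. Intervals for ratios between genes are normal intervals from Poisson errors of the counts. Alternatives covered scaling (with DESeq2 1.42.0 size factors among them), read minimum, prior count, biotype and fold. All 42 members have the coordinates of GENCODE M21 (GRCm38). Python 3.11.15, pandas 2.3.3 and scipy 1.17.1 were used.

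The members and gene lists were chosen with earlier results of these data known. All members are named. Of the further pathway lists, the 2 genes with the most reads and each called gene with at least 100 reads in 1 library are named. Of the lists for T cells, Treg cells and other cell types, the most abundant and the defining markers are named. E2f2, E2f7, Ttk, Anln, Kif2c, Cdc25c, Krt8, Krt19, Fabp2, Muc2, Csf1r, Ikzf2 and Tnfrsf18 were added after their values were seen. A few genes that these rules would name are not reported here.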

Additional observations from a re-analysis of the deposited data

How the results depend on the processing

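DESeq2 size factors, upper quartile factors, the deposited FPKM, a minimum of 100 reads, protein-coding genes alone and a prior count of 0.5 each left the 3 counts of members and the 4 group medians near their values. So did no read minimum, except that the inhibitor median went from -0.16 to -0.03 as Cdkn2a entered. With unscaled totals, which moved the median of all genes by 0.106, members called lower went from 3 to 1 and those with an interval below 0 from 17 to 10, while 12.83% of all genes were called lower and 19.97% higher, and 4 further list medians changed sign, to 0.0478 (other replication), 0.0512 (E2F, RB and DREAM), 0.0011 (checkpoint) and 0.0084 (quiescence and p53 targets). Scaling to T cell identity genes moved the median of all genes by 0.323, with 0 members called lower and 4 higher (9.21% and 30.05% of all genes) and 3 with an interval below 0. The medians became 0.170, 0.0101, 0.165 and 0.162 for replication, mitotic, G1 and inhibitor members and 0.265, 0.154, 0.268, 0.218 and 0.226 for the further lists, in the order other replication, other mitotic, E2F, checkpoint and quiescence. These shifts follow from the scaling itself, and 28 of 41 single members then left their own counting interval. Without Cd2, an alternative added after the data were seen, that scaling called 1 member lower and 3 higher (11.85% and 21.81% of all genes), with 7 intervals below 0. Its medians above 0 were 0.0068 (replication members), 0.0020 (G1), 0.102 (other replication), 0.105 (E2F), 0.0552 (checkpoint) and 0.0625 (quiescence). A lower fold threshold (0.32 on the log2 scale) called 13 members lower and 3 higher, against 25.3% and 26.7% of all genes, and a fold of 2 called 0 lower and 1 higher, against 8.14% and 9.37%. Family shares do not depend on scaling. The alternatives for the further lists were added after the data were seen. Depth limits genes with under 100 reads, such as Plk1, Mcm10 and Ccnd1. No paired analysis was possible because each genotype has 1 library, so no library could be left out either.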

Other observations

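Kif23 and Racgap1 encode the partners of the centralspindlin complex, which builds the cleavage furrow, and Racgap1 was picked after its values were seen. Racgap1 had 470 and 395 reads, a ratio of -0.28, while Kif23 was at -1.73. The Kif23 to Racgap1 ratio per length was 2.30 in WT and 0.839 in Exon2KO, a log2 change of -1.45 (-1.71 to -1.20). The remaining CDK inhibitor genes, also picked afterwards, gave no difference detectable at this depth, with 65 and 60 reads of Cdkn1c, which encodes p57, and 65 and 56 of Cdkn2b, which encodes p15. The mitotic transcription factors Mybl2 and Foxm1, picked afterwards too, had 75 and 29 reads (-1.34, -2.07 to -0.76) and 37 and 67 reads (0.80, 0.23 to 1.45).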
